A study of Homo sapiens with 13 samples.

Results

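The regions described here carried TAZ and TEAD4 peaks but no YAP peak and no JUN peak. They numbered 383 of the 28100 regions obtained by merging the 4 peak lists of the series wherever peaks overlapped by at least 1 bp. Regions that started between 26 and 29 Mb of chromosome 6 (hg19), an interval known for its histone and tRNA genes, were left out, and they numbered 78. The members were therefore chosen by the presence and absence of peaks in these lists. All values below that come from the same lists describe the members, and no test was made on them.

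The study mapped 4 transcriptional regulators by chromatin immunoprecipitation and sequencing (ChIP-seq) in MDA-MB-231 cells, an established line from a human mammary tumour, grown in DMEM:F12 with serum and no treatment named in the labels. The 13 libraries comprised 2 replicates each with antibodies to YAP (clone EP1674Y), TAZ (WWTR1), TEAD4 (TEF-3, N-G2) and JUN, 2 with rabbit IgG and 3 with mouse IgG. YAP and TAZ were called against rabbit IgG, and TEAD4 and JUN against mouse IgG. Going by the raw file names, rabbit IgG was sequenced in one run with YAP and TAZ, and TEAD4 in another with mouse IgG, so run and IgG cannot be told apart from the factor when TAZ is set against TEAD4. The labels assign 1 peak list to both replicates of each factor, so there is no spread between replicates, and the read depth is unknown here. Peak names in the list labelled TAZ hold the tag YAPTAZ, and the sources used here do not say whether that list was made from TAZ libraries alone. A TAZ peak below is a peak of that list. All the cells are of 1 line.

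The paralogues YAP and TAZ are coactivators that the Hippo pathway holds in check. They do not bind DNA themselves and reach it through partners, above all the TEAD proteins, of which TEAD4 is one. JUN is a subunit of AP-1, a dimeric factor that binds its own short DNA motif and often sits beside TEAD at enhancers. A site with TAZ and TEAD4 peaks but without YAP and JUN peaks thus has a coactivator and its DNA-binding partner in the lists, without the paralogue and without AP-1. Genes and sequences are not given because no annotation or genome of hg19 was used here, and regions are named by position.

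The members lay mostly at the 2 ends of the TAZ list. The −log10 p of the TAZ peak against IgG, as the authors' peak caller gave it, ranged from 22.0 to 253 with a median of 32.1 (95% interval from the order statistics, 30.0 to 34.6). With the TAZ list divided into 10 equal parts by p, 101 members had their TAZ peak in the strongest part, 11 in the second, 7 in the third and 6 in the fourth. The number then rose again to 69 in part 9 and 65 in the weakest part. Members thus made up 10.3% of the strongest part, 0.612% of part 4 and 7.04% of part 9. Intervals on medians and shares cover counting over regions only, and neighbouring regions are not independent.

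**Figure D1:**
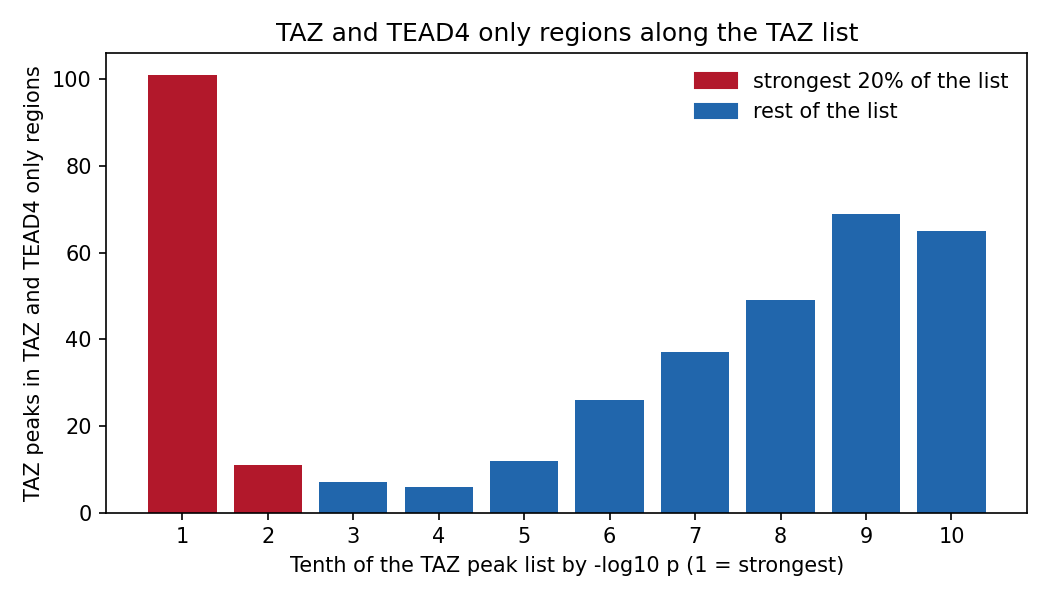
Number of TAZ and TEAD4 only regions (y axis) whose TAZ peak falls in each of 10 equal parts of the TAZ list ordered by −log10 p (x axis, 1 is the strongest). The bars are high at both ends, with 101 in the strongest part and 65 in the weakest, and lowest at 6 in the fourth.

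The strongest 20% of the TAZ list by p held 112 members (29.2%, exact binomial interval 24.7 to 34.1), against 20% of the list by construction. The share was 23.7% (21.3 to 26.2) in regions with YAP, TAZ and TEAD4 without JUN, and 33.3% (31.9 to 34.7) in regions with all 4 factors. The 112 members are called the strong members below, and the remaining 271 the weak members. The lowest −log10 p among the strong members was 83.7, and the highest among the weak members was 79.0. TEAD4 followed the same division. Of the 112 strong members, 105 (93.8%, 87.5 to 97.5) also had a TEAD4 peak in the strongest 20% of its own list, against 3 of the 271 weak members (1.11%, 0.229 to 3.20). The TEAD4 list was made with another antibody and other libraries than the TAZ list, and its strength did not enter the rule beyond being listed.

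The strong members had a higher TAZ −log10 p at a lower TAZ enrichment than strong regions that also carried YAP. Their median fold enrichment over IgG was 8.38 for TAZ (7.78 to 9.11, range 4.92 to 18.4) and 9.39 for TEAD4 (8.94 to 9.96, range 4.95 to 20.1), where the whole lists had medians of 6.96 and 7.20. Regions with YAP, TAZ and TEAD4 but no JUN were the closest class for comparison, since they differ from the members by YAP alone. In the 286 of them with a TAZ peak in the same strongest 20%, the median TAZ enrichment was higher, 13.1 (12.6 to 13.7), but the median −log10 p was lower, 111 (105 to 120) against 166 (157 to 176) in the strong members. Ordered by enrichment in place of p, 36 of the 112 strong members (32.1%, 23.6 to 41.6) and 1 of the 271 weak members (0.369%) were in the strongest 20% of the TAZ list, against 249 of the 286 (87.1%, 82.6 to 90.7). Over all 383 members, 37 (9.66%, 6.89 to 13.1) reached the strongest 20% of the TAZ list, and 42 (10.97%, 8.02 to 14.5) that of the TEAD4 list.

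**Figure D2:**
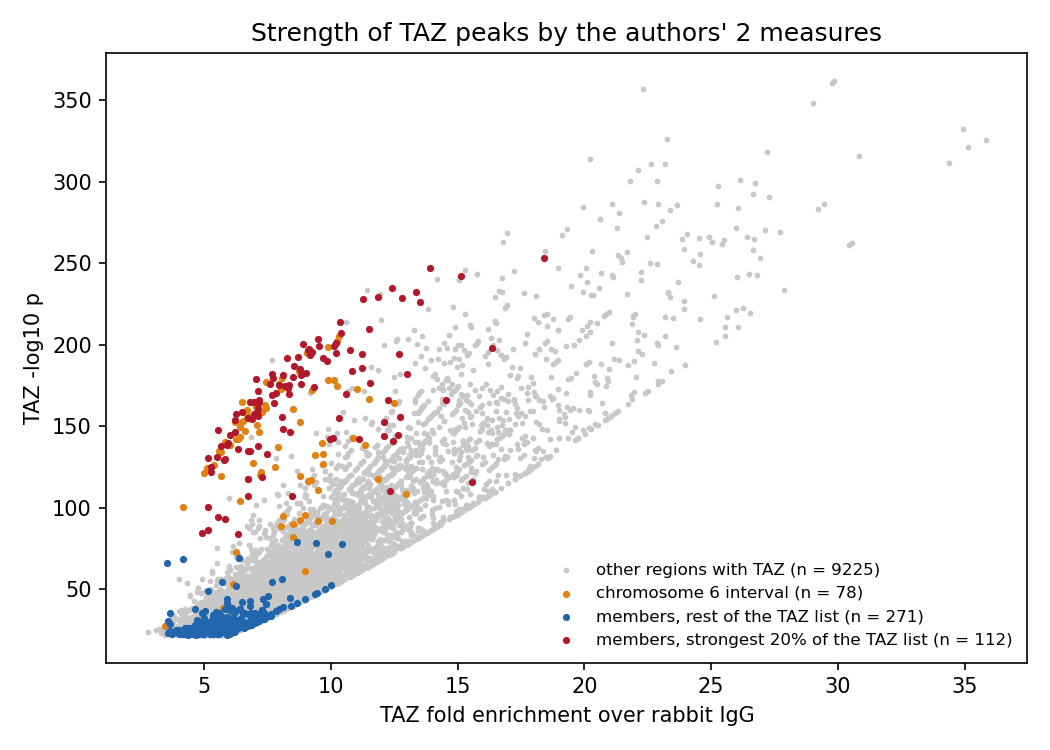
TAZ fold enrichment over rabbit IgG (x axis) and TAZ −log10 p (y axis) for every merged region with TAZ. The 112 strong members (red) and the 78 regions of the chromosome 6 interval (orange) lie mostly along the upper left edge of the cloud of other regions (grey). The strong members range in enrichment from 4.92 to 18.4 and in −log10 p from 83.7 to 253, with the highest −log10 p at 18.4-fold. The 271 weak members (blue, the rest of the list in the legend) lie at the lower left end of the cloud.

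TAZ peaks of the strong members were also wide. Their TAZ peak had a median width of 995.5 bp (906 to 1049) and their TEAD4 peak 600.5 bp (581 to 629), whereas the 286 strong regions with YAP, TAZ and TEAD4 had 644 bp and 556 bp. The 1427 regions with all 4 factors and a TAZ peak in the strongest 20% had a narrower TAZ peak, 774 bp (760 to 793), but a wider TEAD4 peak, 649 bp (638 to 663), and their whole regions spanned a median of 1005 bp against 1000.5 bp in the strong members. Of the 57 members with a TAZ peak over 1000 bp, 55 were strong. The widest member, on chromosome 17 (8123655 to 8126889), spanned 3235 bp and held a TAZ peak of 2992 bp and a TEAD4 peak of 2019 bp. A second TEAD4 peak lay under the TAZ peak in 12 members, 10 of them strong, and the other 371 had 1 peak of each factor.

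Enrichment and p together imply a control level for each peak, provided that the formulas behind them are known. For MACS2, which the submitters' processing notes name, the enrichment was taken to be the ChIP level at the summit over the control level, each with 1 added, and p the Poisson tail of the ChIP level over the control level. Solving both for the control gave levels that stopped at a sharp lower end in each list, 6.62 for TAZ and 8.51 for TEAD4, with 10.0% and 18.1% of peaks within 5% of it. The levels below are given as multiples of that lowest value. They rest on these formulas, were worked out after the values had been seen, and are computed from the same 2 numbers per peak that describe its strength. No IgG reads were used here. The sources used here do not say whether the control was taken at the summit or over a wider window.

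The control level was high at the strong members in both lists. The median was 5.38 times the lowest for TAZ (4.90 to 5.74), called against rabbit IgG, and 3.29 times for TEAD4 (2.94 to 3.42), called against mouse IgG. Weak members stood at 1.59 (1.53 to 1.71) and 1.37 (1.28 to 1.42), and the medians of the whole lists were 1.61 and 1.40. A TAZ control level of 3 or more times the lowest was found at 98 of the 112 strong members and 14 of the 271 weak members. These 112 members (29.2%, 24.7 to 34.1) stand beside 4.15% of all TAZ peaks. For TEAD4 such a level was found at 69 members, all of which had it for TAZ as well, beside 2.47% of all TEAD4 peaks. Across the 383 members the TAZ and TEAD4 control levels were correlated (Spearman rho 0.78), and the 2 lists share neither libraries nor IgG. Within the strong and the weak members rho was 0.72 and 0.55. The correlation was not particular to the members. It was 0.58 in regions with YAP, TAZ and TEAD4 and 0.59 in those with TAZ, TEAD4 and JUN. In regions with all 4 factors it was 0.57, and in the chromosome 6 interval 0.82. The part of the control level in the division of the members was not tested.

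**Figure D3:**
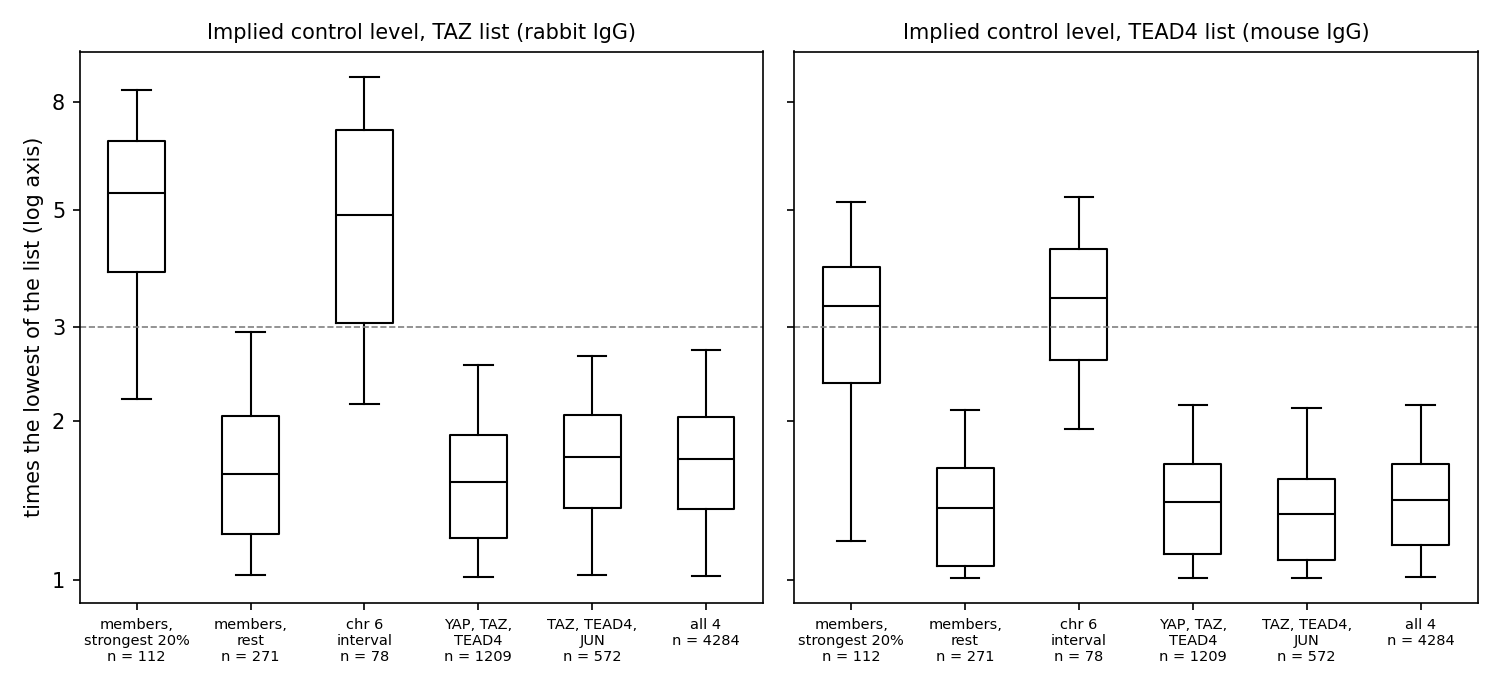
Implied IgG control level under the TAZ peak (left) and the TEAD4 peak (right), as multiples of the lowest value of each list on a log axis, for 6 groups of regions. Boxes give the quartiles and the median, whiskers the 5th and 95th percentiles, and the dashed line marks 3 times the lowest. The strong members and the chromosome 6 interval stand above that line at their medians (5.38 and 4.90 for TAZ, 3.29 and 3.41 for TEAD4), and the other groups below it.

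The ChIP level implied by the same formulas was near the top of each list at the strong members. It had a median of 313.5 overlapping fragments for TAZ (305 to 322), where the TAZ list as a whole had a median of 81 and a highest value of 371. For TEAD4 it was 273 (262 to 282), against a median of 92 and a highest value of 362 in the list. Weak members stood at 64 for TAZ and 78 for TEAD4. Among the strong members, TAZ enrichment fell as the control level rose (rho -0.92), and the enrichment formula has the control level in its denominator.

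Other TAZ peaks around the strong members, taken at any strength, had a lower control level than the strong members themselves. Around the strong members, 103 other TAZ peaks lay within 100 kb, leaving out all regions with TAZ and TEAD4 alone. Their median control level was 1.77 times the lowest (1.69 to 1.88), and 9 of them (8.74%, 4.07 to 15.9) reached 3 times. Within 10 kb there were 17 such peaks, with a median of 2.22 (1.43 to 4.39), and 5 of them (29.4%, 10.3 to 56.0) reached 3 times. Around the weak members, 9 of 386 such peaks within 100 kb (2.33%, 1.07 to 4.38) did, and 1 of 83 within 10 kb (1.20%, 0.0305 to 6.53). Of all TAZ peaks, 4.15% reached 3 times. The regions left out, those with TAZ and TEAD4 alone, made up 174 of the 403 regions whose TAZ peak reached it. The strong members were picked by p, which is 1 of the 2 values from which the control level is solved. The 2 sets thus differ by how they were picked, and whether high levels are confined to the members was not tested.

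High control levels were also found at some peaks of the YAP and JUN lists. Whether the control level bears on the absence of YAP and JUN peaks at the members was not tested. YAP peaks with a control level of 3 or more times the lowest of the YAP list made up 2.43% of that list. They were found in 184 regions, with a median YAP enrichment of 5.03 and a lowest of 2.54, where the whole YAP list had a median of 7.35. Of these regions, 112 held all 4 factors. Such levels were found at 1.08% of JUN peaks. Of the 403 regions whose TAZ peak had such a level, 112 were members (27.8%), 62 belonged to the chromosome 6 interval (15.4%) and 119 held all 4 factors (29.5%). Within classes, the level was found at 2.78% of the 4284 regions with all 4 factors and at 2.48% of the 1209 with YAP, TAZ and TEAD4.

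Not all strong members had a high control level. In 14 of the 112 the TAZ control stayed between 1.19 and 2.87 times the lowest. Their TAZ enrichment was 11.1 to 18.4, with a median of 12.7. A high enrichment follows from how these 14 were picked, since the control level is solved from p and enrichment. Their TEAD4 enrichment was more spread, from 5.46 to 20.1 with a median of 10.8. They lay between 18.9 and 1574 kb from the nearest YAP peak, and none was within 10 kb of one.

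Those 14 included the most enriched members of both lists. The most enriched TAZ member, on chromosome 16 (686269 to 687077), reached 18.4-fold for TAZ with a −log10 p of 253, rank 67 of the 9798 TAZ peaks, and 10.6-fold for TEAD4. Its control levels were 2.19 and 2.24 times the lowest. The most enriched TEAD4 member, on chromosome X (18692817 to 18693642), reached 20.1-fold for TEAD4 and 12.3-fold for TAZ, with control levels of 1.02 and 2.70. By the mean rank of both enrichments over the members, the first was on chromosome 15 (68131904 to 68132864), with 13.0-fold for TAZ and 14.3-fold for TEAD4 and summits 27 bp apart. The next, on chromosome 13 (31247747 to 31248442), had 15.1-fold and 12.9-fold, and its TAZ −log10 p of 242 also placed it among the 10 most significant members. All 10 of the best members by mean rank were strong. The remaining 7 lay on chromosomes 2, 5, 7, 14, 15 and 16, with TAZ enrichments from 10.3 to 14.5 and TEAD4 enrichments from 11.5 to 18.4. Their TAZ control levels ranged from 2.03 to 3.88 times the lowest, so not all of the 7 were among the 14.

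The 10 members with the highest TAZ −log10 p ranged from 214 to 253. After the chromosome 16 and 13 regions just named and one on chromosome 17 (19411173 to 19411771, 13.9-fold for TAZ, 10.8-fold for TEAD4), they included chromosome 5 (180618095 to 180619118, 12.4-fold and 10.3-fold), chromosome 8 (96281427 to 96282470, 13.4-fold and 10.4-fold) and chromosome 12 (56583703 to 56584428, 11.9-fold and 9.23-fold). Another, on chromosome 1 (145395390 to 145396321), had 11.3-fold for TAZ but 6.13-fold for TEAD4, with the TEAD4 control level at 5.86 times the lowest. The TAZ control levels of these 10 members ranged from 2.19 to 4.72 times the lowest, and not all of the 10 were among the 14 above.

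The 2 factors did not always rank alike. TAZ and TEAD4 enrichment correlated with rho 0.48 over the 383 members, 0.36 over the strong and 0.16 over the weak members, while regions with YAP, TAZ and TEAD4 gave 0.57 and regions with all 4 factors 0.59. These correlations are descriptions across sites whose cutoffs and class sizes differ. The clearest departure among the strong members was on chromosome 7 (148637635 to 148638866), chosen after its values were seen, where TAZ stood at rank 212 with 16.4-fold and TEAD4 at rank 4330 of 8406 with 5.46-fold.

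Summits of TAZ and TEAD4 lay close together in most members. The median distance was 20 bp (17 to 23), and 295 members (77.0%, 72.5 to 81.1) had them within 50 bp. That share was 92.1% (90.4 to 93.5) in regions with YAP, TAZ and TEAD4, 85.7% (84.6 to 86.7) in regions with all 4 factors and 79.7% (76.2 to 82.9) in regions with TAZ, TEAD4 and JUN. The weak members had a median of 16 bp (12 to 19), near the 12 bp (11 to 13) of regions with YAP, TAZ and TEAD4. In the strong members the median was 39.5 bp (32 to 47), where the strong regions with YAP, TAZ and TEAD4 had 8 bp (7 to 10). Of the strong members 9 (8.04%, 3.74 to 14.7) had summits over 200 bp apart, against 0 of those 286 regions (upper limit of the exact interval 1.28%). The share was 1.47% (0.913 to 2.24) in strong regions with all 4 factors. In the chromosome 6 interval, 4 of the 73 strong regions (5.48%, 1.51 to 13.4) had such summits, with a median distance of 28 bp (17 to 36). Among the members, the widest had the longest distance, 1322 bp.

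Members were found on all 23 chromosomes of the lists, and the strong ones were unevenly spread. Chromosomes 1, 16 and 17 held 13 strong members each, chromosome 14 held 11, chromosome 5 held 9 and chromosome 15 held 8. On chromosomes 16 and 17, which carried 257 and 385 TAZ peaks, the strong members were 61.9% and 59.1% of all members there. On chromosome 1, which carried 968, they were 27.1%, beside 29.2% over all 383 members. Chromosome 4 had 19 members, chromosome 18 had 8 and chromosome 20 had 6, and none of these was strong. Weak members were most numerous on chromosomes 1 (35) and 2 (29), which also carried the most TAZ peaks (968 and 757). As a share of the TAZ peaks of a chromosome, all members together ranged from 0.781% on chromosome 22 to 8.17% on chromosome 16.

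**Figure D4:**
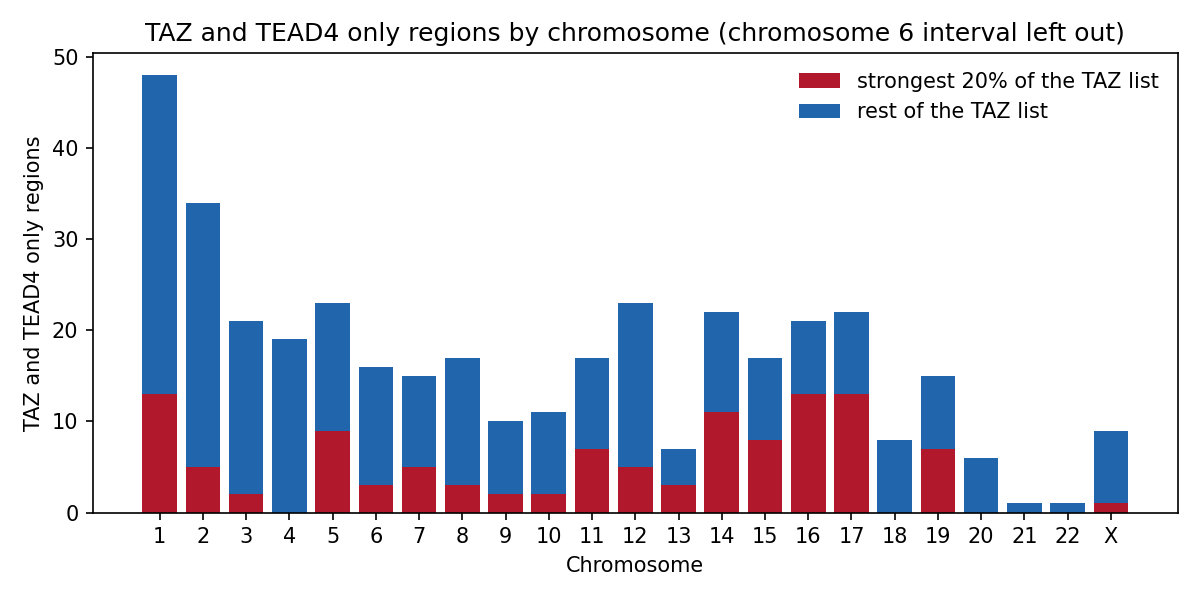
Number of TAZ and TEAD4 only regions (y axis) on each chromosome (x axis), with strong members in red below and weak members in blue above. Red exceeds blue on chromosomes 16 (13 of 21) and 17 (13 of 22), and is absent on chromosomes 4, 18, 20, 21 and 22.

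Strong members lay closer to the nearest other member, strong or weak, than weak members did. Of the strong, 48 (42.9%, 33.5 to 52.6) lay within 100 kb of another member and 34 within 5 kb. Of the weak, 23 (8.49%, 5.46 to 12.5) lay within 100 kb and 5 within 5 kb. The median distance to the nearest other member was 364 kb for the strong (59.6 to 998) and 2445 kb for the weak. Regions with YAP, TAZ and TEAD4, which are 1209 and so more closely spaced, had another of their class within 100 kb in 16.4% (14.3 to 18.6). For the 286 of them with a TAZ peak in the strongest 20%, the share was 19.6% (15.1 to 24.7). Regions with all 4 factors, which number 4284, had more than the strong members, 53.7% (52.2 to 55.2), and 57.2% where the TAZ peak was in the strongest 20%. Of the 312 bins of 1 Mb that held members, 276 held 1 and 24 held 2. The 12 bins with 3 or more, on 7 chromosomes, held 59 members (15.4%), 42 of them strong.

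The densest bins differed from each other in enrichment and control level. On chromosome 5 (180000001 to 181000000), 7 strong members lay within 36.5 kb, with TAZ enrichments of 5.90 to 12.4, TEAD4 enrichments of 6.99 to 10.3 and TAZ control levels of 3.85 to 8.27 times the lowest. This bin had 9 TAZ, 9 TEAD4 and 6 JUN peaks and no YAP peak. It also held the member farthest from any YAP peak (180648486 to 180650642, 2434 kb). On chromosome 16 (3000001 to 4000000), 8 members lay within 41.8 kb, 6 of them strong, with higher TAZ enrichments of 8.48 to 15.6 and lower TAZ control levels of 1.19 to 3.88. One of them (3232520 to 3233133) had 15.6-fold TAZ and 9.05-fold TEAD4 enrichment at control levels of 1.19 and 1.01, close to the lowest of both lists.

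Chromosome 1 held 2 of the 5 densest bins. Between 161369053 and 161591713 there were 8 members, 4 of them strong, with the lowest minimum of both enrichments among the 12 dense bins, 3.56 to 5.94 for TAZ and 4.07 to 8.14 for TEAD4. Their TAZ control levels of 4.75 to 11.1 times the lowest included the highest of any member. In the bin at 145000001 to 146000000, 3 strong members lay side by side between 145395390 and 145400028, with TAZ control levels of 4.39 to 8.94, and 2 weak members farther on had 1.34 and 1.39. On chromosome 14 (21000001 to 22000000), 7 members within 75.5 kb, 5 of them strong, had TAZ enrichments of 8.07 to 12.4 and control levels of 1.69 to 5.74.

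Distances to the missing factors also differed between the 2 kinds of member. The nearest YAP peak lay at a median of 126 kb from the strong members (77.3 to 151) and 66.3 kb from the weak (43.4 to 92.2). A YAP peak within 10 kb was found for 8 strong members (7.14%, 3.13 to 13.6) and 54 weak members (19.9%, 15.3 to 25.2). For JUN the medians were 38.8 kb (31.4 to 47.3) and 18.6 kb (13.5 to 23.5), and a peak within 10 kb was found for 26 strong (23.2%, 15.8 to 32.1) and 101 weak members (37.3%, 31.5 to 43.3). A region with all 4 factors lay within 10 kb of 6 strong and 37 weak members. In regions with TAZ, TEAD4 and JUN, which also lack YAP, the nearest YAP peak was at a median of 52.1 kb (45.0 to 60.8). Of them 19.6% (16.4 to 23.1) had a YAP peak within 10 kb. Of regions with YAP, TAZ and TEAD4, which also lack JUN, 41.1% (38.3 to 43.9) had a JUN peak within 10 kb. In the 73 strong regions of the chromosome 6 interval, the shares within 10 kb were 1.37% for YAP and 16.4% for JUN.

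**Figure D5:**
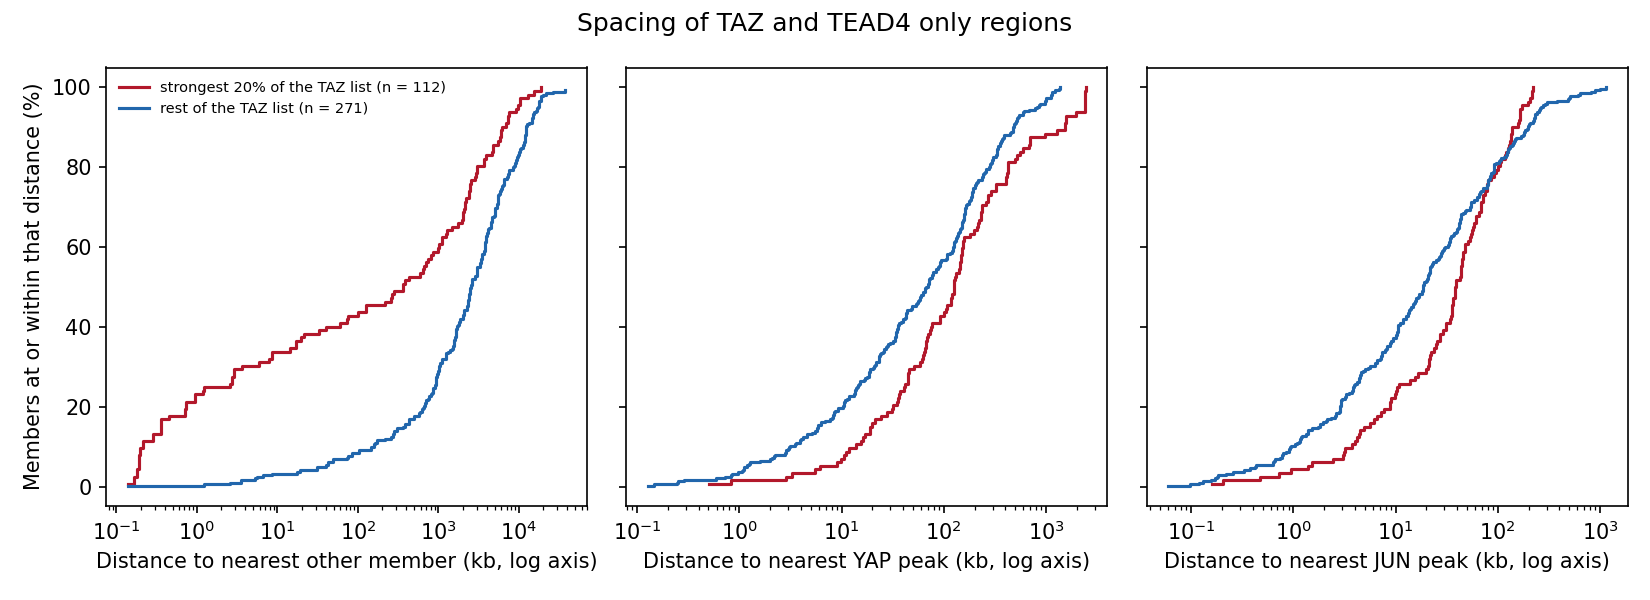
Cumulative share of members (y axis, percent) at or within a given distance (x axis, kb, log axis) of the nearest other member (left), YAP peak (middle) and JUN peak (right), for strong (red) and weak (blue) members. Strong members are closer to the nearest other member, strong or weak (42.9% within 100 kb against 8.49%). Fewer of them have a YAP peak within 10 kb (7.14% against 19.9%).

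The weak members stood close to the lower limit of the TAZ list. Their median TAZ −log10 p was 27.3 (26.4 to 28.7), where the weakest listed TAZ peak had 22.0, and their median TAZ rank was 7824 of 9798. Their TEAD4 peaks were less marginal, with a median −log10 p of 36.4 and a median rank of 5691 of 8406. Median enrichments were 5.62 for TAZ (5.50 to 5.82) and 6.32 for TEAD4 (6.13 to 6.52). Regions with TAZ, TEAD4 and JUN had near values, 5.47 (5.41 to 5.58) and 6.14 (6.05 to 6.28), a median TAZ −log10 p of 27.6 and a TAZ control level of 1.71 times the lowest. Of those 572 regions, 9 (1.57%) had a TAZ peak in the strongest 20%.

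In the chromosome 6 interval, 73 of the 78 regions had a TAZ peak in the strongest 20%, and their values were near those of the strong members in part. They had a median TAZ enrichment of 8.03 (7.21 to 8.81), a TEAD4 enrichment of 8.35 (7.96 to 8.54), a TAZ width of 942 bp (850 to 1063) and control levels of 5.23 and 3.52 times the lowest. The intervals overlapped those of the strong members for TAZ enrichment, width and both control levels, but not for TEAD4 enrichment (9.39) nor for TAZ −log10 p (142 against 166). Of these 73 regions 97.3% lay within 100 kb of another of the interval, against 42.9% of the strong members, and the interval was itself delimited by position.

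The limits of the rule are the listing of a peak and the overlap of peaks. By listing, 69 and 65 members lay in the 2 weakest of the 10 parts of the TAZ list. By position, 349 of the 383 had no YAP or JUN peak within 1 kb. The smallest overlap between a TAZ and a TEAD4 peak in a member was 241 bp, on chromosome 14 (45169333 to 45169799), where it was the whole TAZ peak. The closest TAZ and TEAD4 regions that failed to overlap were 93 bp apart on chromosome 6, with enrichments of 4.90 and 5.39. The member nearest to a YAP peak, on chromosome 4 (187605948 to 187606686, 5.05-fold for TAZ, 10.4-fold for TEAD4), lay 129 bp from it, and the nearest to a JUN peak, also on chromosome 4 (13560981 to 13561429, 5.51-fold and 5.43-fold), 60 bp. The smallest YAP overlap that removed a region outside the chromosome 6 interval was 277 bp, on chromosome 20 (49358416 to 49358821, 5.03-fold for TAZ, 8.04-fold for TEAD4). The smallest JUN overlaps that removed a region were 18 bp on chromosome 14 (35825127 to 35826116) and 82 bp on chromosome 11 (59327444 to 59328985), the latter with 6.98-fold TAZ and 7.06-fold TEAD4 enrichment. Around the chromosome 6 interval, the last member before it began at 23956022 (7.03-fold TAZ) and the first after it at 29415396 (4.90-fold). The outermost regions inside began at 26305466 (9.72-fold) and 28948986 (5.83-fold).

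Whether weaker YAP signal lay under the members could be bounded only loosely. Peak names carry numbers that ascend along each chromosome and, if these number all candidates, the YAP list kept 7709 of 35378. Between the listed YAP peaks on each side of a member, 0 candidates were unlisted at 2 of the 373 members that lie between such peaks (0.536%, 0.0650 to 1.92), both strong. Regions with JUN alone gave 2.30% (2.08 to 2.54). Where members shared a flanking interval with fewer unlisted candidates than members, at least 8 of the 373 had no YAP candidate, 6 of them at least among the 102 strong. The share depends on the processing. With the stronger 50% of each list it was 0.730% against the halved YAP list and 11.96% against the whole YAP list. In that setting a region with a YAP peak of the weaker 50% counts as a member. The 11.96% is thus not a share of regions without a listed YAP peak. For the other members these numbers do not tell whether a YAP candidate was present.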

How the data were processed

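The submitters' processing notes name build hg19 and, with no roles given, the tools MACS2 2.0.10, SAMtools, Bowtie 0.12.7 and CASAVA. Peaks were called within the IDR (irreproducible discovery rate) framework against pooled IgG libraries, per the labels, which also carry an IDR value of 0.01. Further filtering is not stated. The deposited lists give per peak the fold enrichment over IgG (a ratio), the −log10 of p and of q, a summit and a score. Neither the −log10 q nor the score, which equals the −log10 p times 10 to within 1, was used. The summit offset, deposited by the authors in bp from the peak start, gave summit positions. Whether the list labelled TAZ, whose peak names hold the tag YAPTAZ, was made from TAZ libraries alone is not stated.

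Peaks were merged with Python 3.11.15 (pandas 2.3.3, scipy 1.17.1). In a region with several peaks of a list the most significant one was used. The control level was solved by bisection. On 5000 peaks simulated with the same formulas, the median error was 0.179% and the largest 3.65%. These errors cover the solving only and do not tell whether the formulas hold for the deposited peaks. Without the added 1 the lowest level was 7.99 in place of 6.62 for TAZ, and 10.0 in place of 8.51 for TEAD4. Shares have Clopper-Pearson and medians order-statistic 95% intervals. Regions were named by position by a rule (10 best by mean rank and by TAZ p, extremes, 5 densest bins, limits of the rule). Members, lists and measures were chosen with earlier results of these data known. Gene neighbours and sequence motifs were not analysed here.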

Additional observations from a re-analysis of the deposited data

How the results depend on the processing

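Alternatives gave 54 values for 7 results. Of these, 41 lay inside the 95% interval of the value reported above (for the number of members, within 1.5 times). The number stayed between 286 (stronger 50% of each list) and 461 (chromosome 6 interval kept). The median TAZ enrichment, 6.04, was 7.96 with the stronger 50% of each list and 6.33 with the interval kept. The share of members in the strongest 20% of the TAZ list, 29.2%, was 24.7% with a reciprocal overlap of 50%, 40.9% with the stronger 50% of each list, 40.1% with the interval kept, 21.6% without the dense 1-Mb bins and 9.66% by enrichment. The share within 100 kb of another member, 18.5%, was 14.5% with a reciprocal overlap of 50%, 31.9% with the interval kept and 5.56% without the dense bins, which removes the groups themselves. Leaving out each chromosome in turn gave 27.3% to 30.8% and 16.1% to 19.6% for these 2 shares. The share with a high TAZ control level, 29.2%, was 47.0% at 2 times and 22.7% at 4 times the lowest. The share of members with no unlisted YAP candidate, 0.536%, was 0.730% with the stronger 50% of each list when candidates were counted between peaks of the equally halved YAP list, but 11.96% (8.37 to 16.4) when counted between peaks of the whole YAP list. The latter was computed first, and the halved list was adopted for that setting after its value had been seen, so this share depends on the choice. In that setting a region with a YAP peak of the weaker 50% counts as a member. The 11.96% is thus not a share of regions without a listed YAP peak. The 2 control thresholds, that count against the whole YAP list, the enrichment formula without the added 1 and the lowest 5% as reference were chosen after seeing the data. The stronger 50% drops weak members by construction; the cause of the other shifts was not tested. No paired analysis was possible because the labels assign a single list to both replicates of each factor, which also prevents leaving one replicate out. Alternatives that need sequences or genes of hg19 were not run. Read depth is not known from these lists, so its effect on absent YAP and JUN peaks was not tested.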
